A study of Mus musculus with 2 samples.

Results

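The constant genes of mouse antibodies were examined in single-cell RNA libraries of normal duodenum and of polyps. The set held 10 of the 32285 genes in the matrices: the heavy-chain genes Igha, Ighm, Ighd, Ighg1, Ighg2b, Ighg2c and Ighg3, and the light-chain genes Igkc, Iglc1 and Iglc2. All 10 were present in both libraries and were chosen by name. The WT library held normal duodenal cells pooled from 3 mice of genotype Lkb1+/+;Myh11-Cre/ERT2. The Lkb1_Het library held polyp cells pooled from 3 mice of genotype Lkb1flox/+;Myh11-Cre/ERT2. Both groups therefore carried the Cre driver, which is under the control of a smooth-muscle promoter, and differed in a conditional allele of Lkb1, the kinase gene whose loss underlies Peutz-Jeghers polyps. The source label reads duodenum for both, so the gut segment of the polyps was not settled by the labels, and ages and induction were not given in the sources used here. The mice of a group shared 1 library and could not be separated. With 1 library per group there is no replicate check. Differences between the libraries could come from genotype, tissue, segment, mice or library, which cannot be told apart, and no p-value is given.

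An antibody is built of a heavy and a light chain. A B cell first makes IgM and IgD, and class switching then replaces the mu constant region with a gamma, epsilon or alpha region further along the locus. In the gut wall most plasma cells have switched to IgA, which they secrete as dimers held by the J chain. Each plasma cell normally keeps 1 heavy constant gene and 1 light chain, kappa in most mouse cells and lambda in a few.

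On the GRCm38 build the heavy genes lay on the minus strand of chromosome 12, in the order of switching from Ighm (113418558 to 113422730) through Ighd, Ighg3, Ighg1, Ighg2b and Ighg2c to Igha (113254830 to 113260236). Igkc lay on chromosome 6 (70726435 to 70726966, plus strand). The lambda genes lay on the minus strand of chromosome 16, Iglc1 at 19061618 to 19062071 and Iglc2 at 19198396 to 19200351, with Iglc3, which was not in the set, at 19065230 to 19065681. Because the light-chain results turn on telling the lambda genes apart, the first 90 coding bases of each are shown from the GENCODE transcripts, in lower case, with capitals at the bases that differ from Iglc1.
Iglc1: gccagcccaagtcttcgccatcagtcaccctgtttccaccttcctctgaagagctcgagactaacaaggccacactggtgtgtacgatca
Iglc2: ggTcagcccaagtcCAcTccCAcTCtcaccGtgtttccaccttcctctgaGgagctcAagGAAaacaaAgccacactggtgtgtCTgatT
Iglc3: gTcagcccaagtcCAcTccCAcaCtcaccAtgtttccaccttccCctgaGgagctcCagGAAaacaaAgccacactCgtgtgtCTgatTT
Over the whole coding part, Iglc1 and Iglc2 were identical at 74.8% of aligned bases, and Iglc2 and Iglc3 at 96.5%. After the stop codon, where 3′ reads fall, the identities were 55.1% and 92.8%. Reads of Iglc1 and Iglc2 are thus separable by sequence, whereas Iglc2 and Iglc3 are close copies between which the counting may have split reads. Values of Iglc2 are uncertain for that reason.

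After the cell filter, 3252 of 9950 barcodes remained in the WT library and 8460 of 14327 in the Lkb1_Het library, with medians of 2431 and 2284.5 unique molecular identifiers (UMIs, 1 per captured RNA molecule). Stk11, which encodes Lkb1, stood at 28.7 CPM (UMIs per 1000000 UMIs of the class) in WT and 38.3 in Lkb1_Het. Its 3′ tag is not known to lie in the deleted part, and the Cre acts in few of these cells, so it checks nothing here. Of the barcode sequences, 44 occurred in both libraries, and 10 of these were kept in both.

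Barcodes with at least 2 UMIs of Mzb1, a chaperone of the antibody-secreting cell, numbered 166 in WT and 310 in Lkb1_Het. They made up 5.10% of kept barcodes in WT (exact Clopper-Pearson 95% interval 4.37 to 5.92) and 3.66% in Lkb1_Het (3.27 to 4.09). The ratio of the shares was 0.718 (0.593 to 0.872). Intervals cover counting error only throughout. The share depended on the filter. The filter kept 32.7% of WT and 59.0% of Lkb1_Het barcodes, and among all deposited barcodes the ratio turned to 1.21. Just below the Mzb1 limit, with exactly 1 UMI, lay 121 and 220 barcodes, whose median share of UMIs from the 10 genes was 1.52% and 0.340%. At exactly 2 UMIs lay 16 and 33 barcodes, with medians of 10.3% and 3.60%.

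The Mzb1 barcodes carried the plasma-cell programme. In WT the 10 genes gave a median of 58.6% of a barcode's UMIs, and in Lkb1_Het 47.3%. At least 10% came from them in 155 of 166 and 273 of 310 barcodes, called immunoglobulin-rich below, a limit set after the values were seen. Jchain, the linker of IgA dimers, was present in all 155 and all 273 of these. Xbp1, the transcription factor of secretory cells, had a UMI in 136 and 263, and Derl3, a factor of protein quality control, in 124 and 197. Genes of other cell types were also present: Epcam, of epithelium, had a UMI in 85 WT and 133 Lkb1_Het Mzb1 barcodes, and Krt8, a keratin, in 86 and 198. At least 1 of 6 such genes was found in 75.9% and 78.4%. An alternative that asked for 0 UMIs of Ms4a1 and under 2 UMIs of these genes kept 73 of 166 and 144 of 310 barcodes. Siglech, which marks plasmacytoid dendritic cells that also express Mzb1, was at 0 in both rich sets.

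The remaining 11 WT and 37 Lkb1_Het Mzb1 barcodes held a median of only 1.02% and 1.47% of UMIs from the set. In Lkb1_Het, 34 of these 37 had Cd74, the invariant chain of antigen presentation, 30 had H2-Aa and 30 had Cd79a, a signalling part of the B-cell receptor. Ms4a1, which encodes CD20, was found in 16 of 37. Cd74 and Cd79a did not set these barcodes apart, since 248 and 246 of the 273 immunoglobulin-rich ones had them. H2-Aa and Ms4a1 were rarer there, in 46 and 3 of 273. Jchain was found in 24 of the 37, and 20 of their 32 heavy-chain calls were Igha. One of the 11 in WT had Siglech. The class of at least 2 Mzb1 UMIs therefore held a minority of barcodes with little antibody RNA and more often H2-Aa and Ms4a1. For that reason the main shares and levels below are also given for the immunoglobulin-rich barcodes.

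IgA was the heavy chain of nearly all Mzb1 barcodes in both libraries. A barcode was assigned to the gene with over 50% of its heavy-chain UMIs where it had at least 3. Igha was dominant in 157 of 163 called barcodes in WT (96.3%, 92.2 to 98.6) and in 290 of 305 in Lkb1_Het (95.1%, 92.0 to 97.2). In the immunoglobulin-rich barcodes the counts were 153 of 155 (98.7%, 95.4 to 99.8) and 270 of 273 (98.9%, 96.8 to 99.8). The intervals of the libraries overlap under both definitions.

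**Figure D1:**
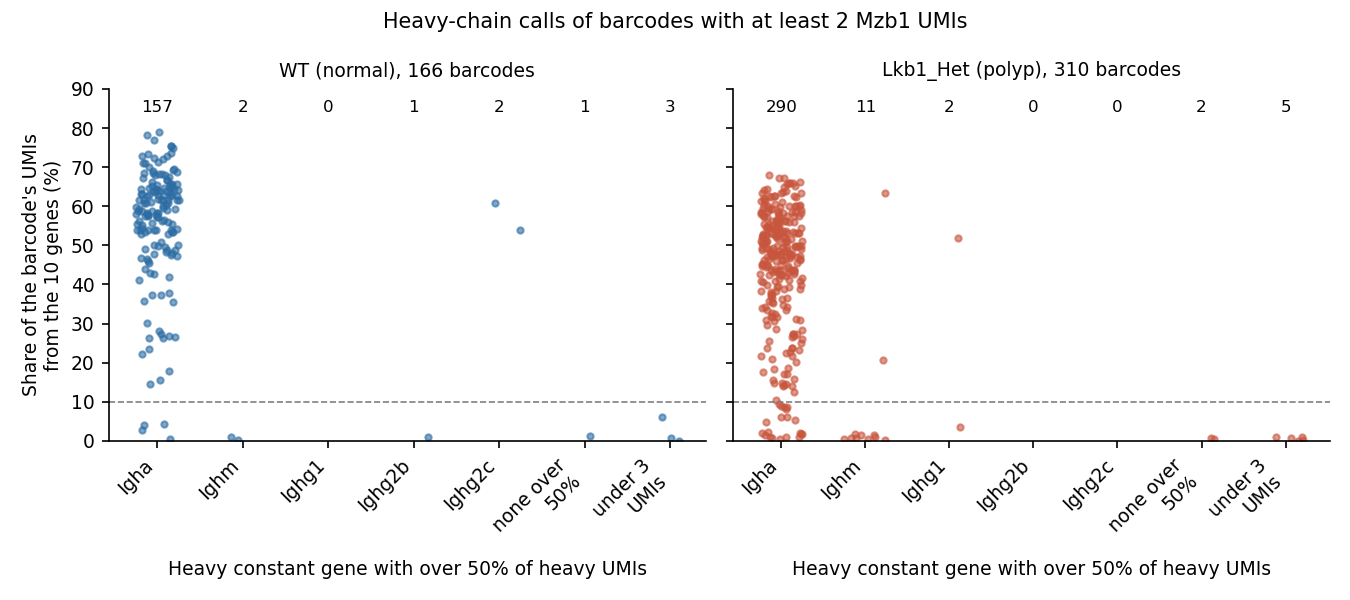
Heavy-chain calls of single barcodes with at least 2 Mzb1 UMIs. Each point is 1 barcode, the vertical axis is the share of its UMIs from the 10 genes, the columns give the heavy gene with over 50% of heavy-chain UMIs, and the number of barcodes stands above each column; the dashed line marks 10%. Igha holds 157 and 290 barcodes, and most barcodes called Ighm lie below the line.

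Within IgA barcodes the call was close to absolute. In the median immunoglobulin-rich IgA barcode 100% of heavy-chain UMIs were Igha, and the 10th percentile was 99.1% in WT and 99.4% in Lkb1_Het. No other heavy gene had a UMI in 105 of 153 and 186 of 270. Summed over all Mzb1 barcodes, Igha stood at 111934 CPM in WT (exact Poisson interval 111544 to 112326) and at 105702 in Lkb1_Het (105310 to 106094), a ratio of 0.944. A median gene of these barcodes was 1.61-fold higher in Lkb1_Het (0.69 on the log2 scale), where the 10 genes took a smaller share of all UMIs. Relative to that gene the Igha ratio was 0.585 (0.582 to 0.588). Without that scaling the direction depended on the barcodes: at 1000 UMIs per barcode Igha stood at 106656 and 108916 CPM, and the median immunoglobulin-rich IgA kappa barcode at 111356 and 122392.

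Single barcodes made up much of several other heavy-chain values. IgM, the first antibody class, was dominant in 2 WT and 11 Lkb1_Het barcodes. Only 2 of those 11 were immunoglobulin-rich. They held 913 and 116 Ighm UMIs beside 4523 and 751 of Igkc, and together 90.3% of all 1140 Ighm UMIs of the class. One had 111 Jchain UMIs and the other 1. The other 9 had 3 to 17 Ighm UMIs, and all 9 had UMIs of Cd79a, Cd74 and H2-Aa. The WT class held 44 Ighm UMIs and no immunoglobulin-rich barcode called Ighm. Summed levels were 15.6 CPM in WT (11.4 to 21.0) and 430 in Lkb1_Het (406 to 456), 17.1-fold higher relative to the median gene (12.6 to 23.6). Without the barcode of 913 Ighm UMIs the relative fold was 3.41 (2.46 to 4.82). UMIs of 1 barcode are not independent cells, so this interval says nothing of cell-to-cell sampling.

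Most IgG levels were concentrated in the same way, with Ighg2c leading in WT and Ighg2b and Ighg1 in Lkb1_Het. Ighg2b was more widely spread, with a UMI in 28 WT and 46 Lkb1_Het barcodes. Ighg2c, the IgG2 gene of C57BL/6-type mice, stood at 609 CPM in WT (581 to 639) and 22.3 in Lkb1_Het (17.0 to 28.7). Of the 1716 WT UMIs, 1575 came from 1 barcode, which also held 7431 Igkc and 954 Jchain UMIs. A further 74 came from a second barcode called Ighg2c, with 1129 Igkc and 6 Jchain UMIs. In Lkb1_Het no barcode was called Ighg2c, and the highest held 8 UMIs. Without the barcode of 1575 UMIs the relative ratio was 0.274 (0.199 to 0.374), against 0.0226 with it.

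Ighg1 showed the opposite order, at 10.3 CPM in WT (6.90 to 14.8) and 162 in Lkb1_Het (147 to 178). There 385 of 430 UMIs came from 1 barcode with 1413 Igkc and 135 Jchain UMIs, and in WT 26 of 29 came from 1 barcode. Relative to the median gene it was 9.77-fold higher (6.70 to 14.8), and 21.4-fold as a mean over barcodes. Without the barcode of 385 UMIs the ratio was 1.02 (0.628 to 1.69). The WT barcode of 26 UMIs was kept in that ratio, so it does not settle the direction. Ighg2b was at 115 CPM (103 to 128) and 223 (205 to 241), a relative ratio of 1.2 (1.05 to 1.38). In Lkb1_Het 329 of its 590 UMIs came from 1 barcode, yet no barcode there was called Ighg2b. The direction turned without that barcode, with every WT barcode kept (0.532), at a common depth of 1000 UMIs (0.876) and as a mean over barcodes (0.867). Ighg3 had 92 UMIs in WT, 54 of them in 1 barcode, and 2 in Lkb1_Het, a relative ratio of 0.0143 (0.00171 to 0.0532). Ighd, the other class of unswitched B cells, had 0 UMIs in WT (a floor of 3 counts is 1.07 CPM) and 8 in Lkb1_Het, all in barcodes poor in immunoglobulin.

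**Figure D2:**
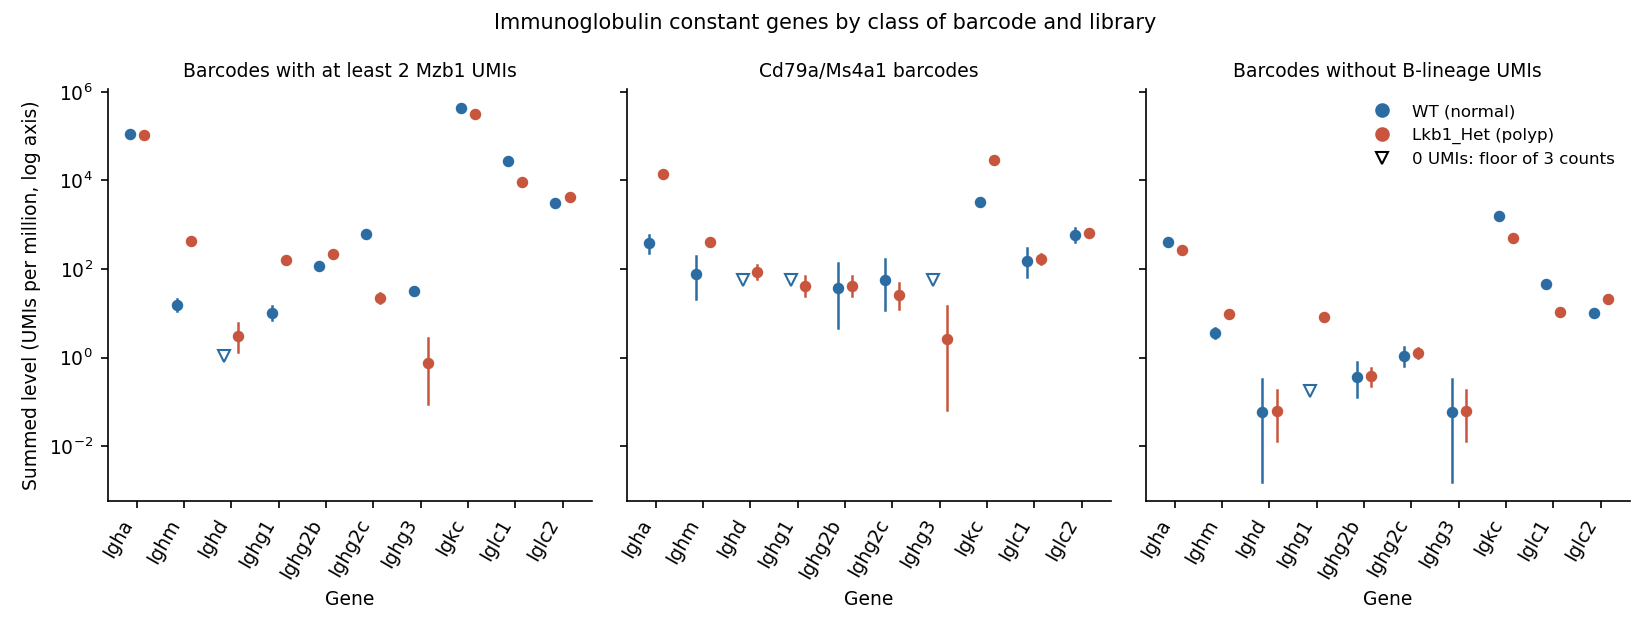
Summed level of each of the 10 genes in CPM (log axis) in 3 classes of barcode, by library. Points are the values, bars exact Poisson 95% intervals (counting error only) and open triangles the floor of 3 counts where a gene had 0 UMIs; in the Mzb1 barcodes Igha and Igkc are the highest in both libraries, and Ighm, Ighg1, Ighg2c and Ighg3 differ most between them.

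Read against all genes, the counts by size were as follows. Ighd had under 20 UMIs and was not measured. Of the 9 measured genes, 2 (Ighm and Ighg1) were at least 2-fold higher in Lkb1_Het relative to the median gene, where 12.4% of 7238 genes were, and 4 (Ighg2c, Ighg3, Igkc and Iglc1) were at least 2-fold lower, where 7.54% were. The median of the 9 was -0.77 on the relative log2 scale, against 0 for all genes by construction. In the immunoglobulin-rich barcodes the same 6 genes passed, beside 12.2% of all genes higher and 7.42% lower, and the median was -0.63. Of the 4 lower calls, those of Ighg2c, Igkc and Iglc1 depended on the setting. In the alternative with 0 UMIs of Ms4a1 and under 2 of other cell types' genes, Ighg2c was at 1.07 and Igkc at 0.593. Iglc1 was at 0.208 there and Ighg3 at 0.0236, so both still passed. That alternative left out both WT barcodes called Ighg2c, since each held a UMI of Ms4a1. Thinned to 1000 UMIs, Iglc1 was at 0.515 and no longer passed. Igkc was then at 0.499, Ighg2c at 0.0145 and Ighg3 at 0.0944. The cause was not tested.

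Kappa was the light chain of most barcodes in both libraries. Igkc, the kappa constant gene, stood at 438608 CPM in WT (437835 to 439382) and 314410 in Lkb1_Het (313735 to 315086), a ratio of 0.717 (0.715 to 0.719) and of 0.444 relative to the median gene (0.488 in immunoglobulin-rich barcodes). It was the most abundant of the 10 genes in both. Lambda (Iglc1 with Iglc2) was dominant in 4 of 166 WT barcodes (2.41%, 0.660 to 6.05) and 11 of 310 in Lkb1_Het (3.55%, 1.78 to 6.26). The intervals overlap widely. Among immunoglobulin-rich barcodes lambda was dominant in 4 of 155 and 8 of 273.

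**Figure D3:**
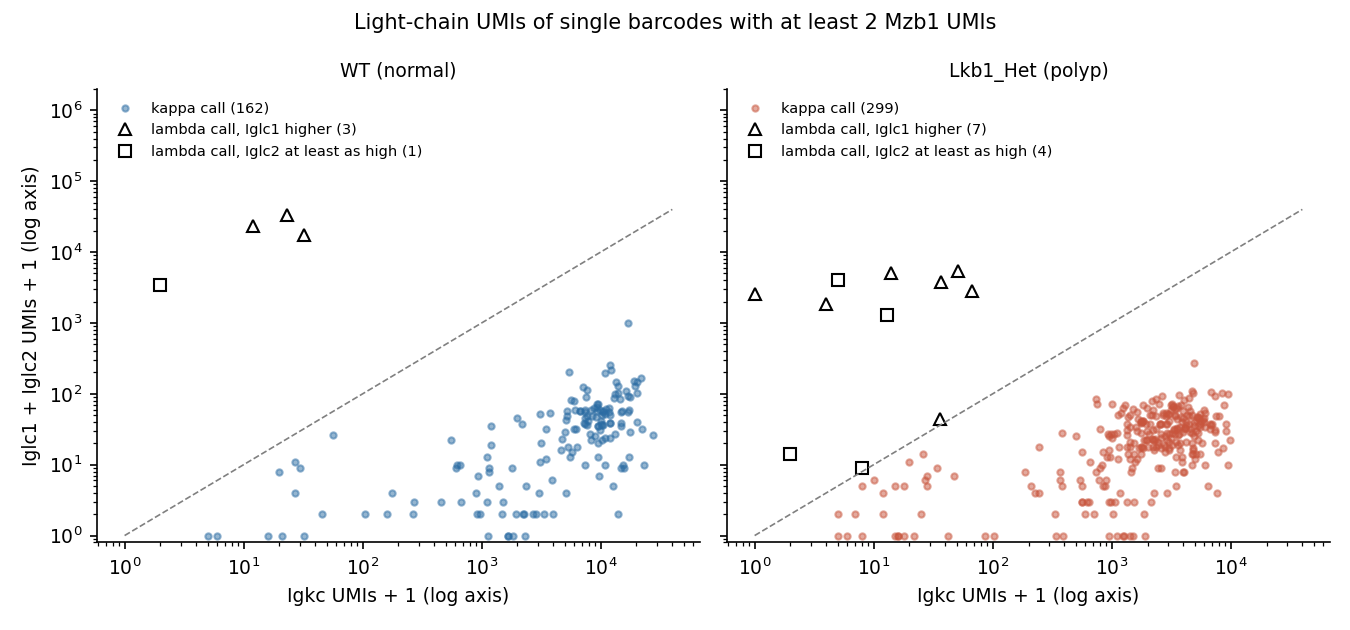
Light-chain UMIs of single barcodes with at least 2 Mzb1 UMIs, Igkc on the horizontal and Iglc1 plus Iglc2 on the vertical axis (UMIs + 1, log axes). Filled points are kappa calls, open symbols lambda calls by the higher lambda gene, and the dashed line marks equal counts; the immunoglobulin-rich lambda barcodes, 4 and 8, lie far above the line, and 3 further lambda calls in the Lkb1_Het library lie close to it or hold few UMIs.

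The immunoglobulin-rich lambda barcodes held almost no Igkc. In WT, 3 held 33335, 23008 and 17440 Iglc1 UMIs with 22, 11 and 31 of Igkc, and the fourth held 3367 Iglc2 UMIs with 1 of Igkc. In Lkb1_Het, 6 held between 1752 and 5424 Iglc1 UMIs, and 2 held 4006 and 1280 Iglc2 UMIs, with 0 to 66 of Igkc in all 8. All 12 were IgA, with 516 to 4773 Igha UMIs. The 3 other lambda calls of Lkb1_Het had 8 to 43 lambda UMIs and 1 to 35 of Igkc, and lay among the barcodes poor in immunoglobulin.

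Variable genes followed the constant gene in these 12 barcodes. In the mouse lambda locus, Iglv1 lies beside Iglc1 and Iglc3, and Iglv2 and Iglv3 lie upstream of Iglc2. All 9 barcodes dominated by Iglc1 had Iglv1 as their highest lambda variable gene, with 16 to 212 UMIs. The 3 dominated by Iglc2 had Iglv2 in 2 (17 UMIs in WT and 8 in Lkb1_Het) and Iglv3 in 1 (26 UMIs). A pair of the WT Iglc1 barcodes shared Ighv1-9, with 31 and 41 UMIs, beside Iglv1. Both their barcodes come from 1 library of 3 mice, and junction sequences were not analysed here.

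The summed lambda levels rested on few barcodes. Iglc1 stood at 26893 CPM in WT (26702 to 27085) and 9191 in Lkb1_Het (9076 to 9308), 4.72-fold lower relative to the median gene (a ratio of 0.212, and of 0.234 in immunoglobulin-rich barcodes). A single barcode gave 44.0% of the WT UMIs, without which the relative ratio was 0.371, and another gave 22.3% of those in Lkb1_Het. Iglc2 stood at 3150 (3085 to 3217) and 4183 (4106 to 4262), a ratio of 1.33, which became 0.823 relative to the median gene (0.905 in immunoglobulin-rich barcodes), 0.527 without the barcode of 4006 UMIs and 1.50 with at least 5 Mzb1 UMIs. Lambda gave 6.41% of light-chain UMIs in WT and 4.08% in Lkb1_Het, the opposite order to the shares of barcodes.

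Low lambda counts were also common in kappa barcodes. Among immunoglobulin-rich IgA barcodes with a kappa call, 136 of 149 in WT and 245 of 262 in Lkb1_Het had an Iglc2 UMI, with medians of 19 and 15 UMIs. That was 0.274% and 0.598% of the barcode's Igkc UMIs. Iglc1 had medians of 5 and 7. In barcodes without B-lineage UMIs, Iglc2 was seen in 5.31% of WT and 7.34% of Lkb1_Het, at a far lower depth. At a common depth of 1000 UMIs, 64.4% of WT Mzb1 barcodes and 1.76% of WT barcodes without B-lineage UMIs had Iglc2. Lambda variable UMIs behaved alike: 115 of 151 WT and 125 of 265 Lkb1_Het immunoglobulin-rich kappa barcodes had at least 3, with medians of 9 and 2, against 70 and 28 in the lambda barcodes. A UMI of a lambda gene was therefore no sign of a lambda cell.

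The kappa to alpha balance was lower in Lkb1_Het, whereas the medians for J chain were almost the same. In single immunoglobulin-rich IgA kappa barcodes the median was 4.43 Igkc UMIs per Igha UMI in WT (quartiles 3.05 and 5.87, 149 barcodes) and 2.87 in Lkb1_Het (1.93 and 3.75, 262 barcodes). The distributions overlap: 36 of 262 Lkb1_Het barcodes (13.7%) lay above the WT median, and 32 of 149 WT barcodes (21.5%) below the Lkb1_Het median. Jchain gave a median of 0.523 UMIs per Igha UMI in WT and 0.526 in Lkb1_Het. The median barcode held 2036 Igha, 7686 Igkc and 18465 UMIs in all in WT, and 985, 2726.5 and 8036.5 in Lkb1_Het. Depth thus differed with the ratio, and its part was not tested. Summed over barcodes without B-lineage UMIs, Igkc per Igha was 4.04 in WT and 1.88 in Lkb1_Het. It was 7.10 in the 133 WT barcodes with at least 5% of UMIs from the set, and 3.13 and 2.01 without such barcodes. By class it was 3.66 and 1.91 in epithelial, 2.85 and 2.33 in T and NK, and 2.24 and 2.22 in stromal barcodes.

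**Figure D4:**
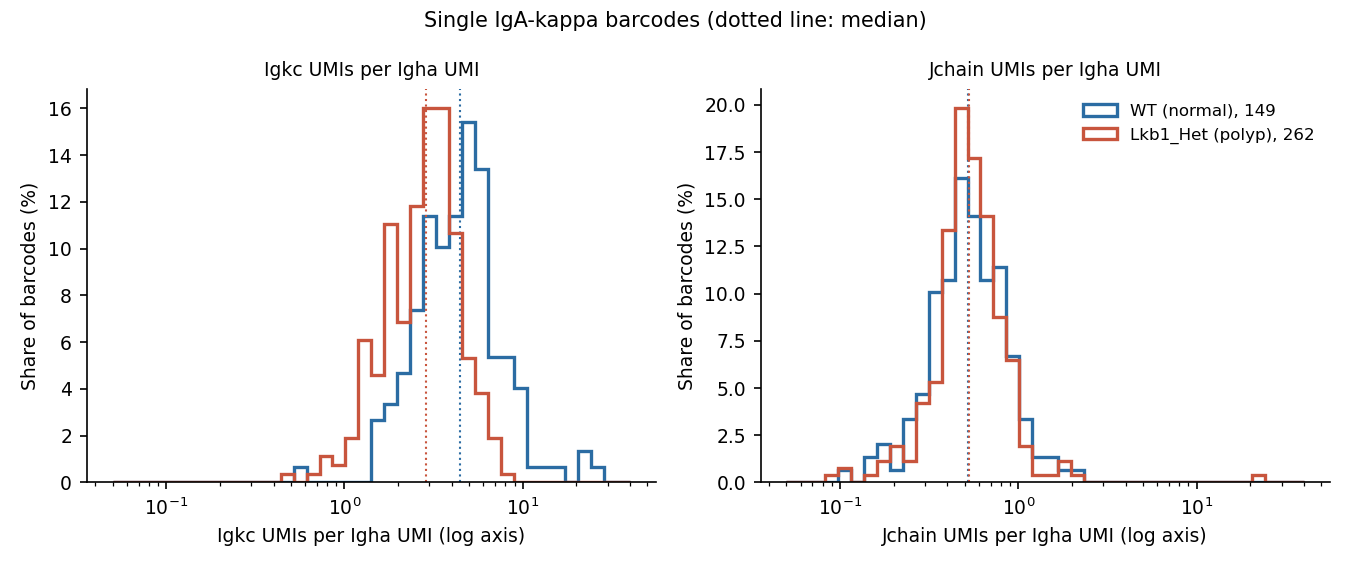
Igkc per Igha (left) and Jchain per Igha (right) in single immunoglobulin-rich IgA kappa barcodes, as shares of barcodes in bins of equal width on a log axis, for 149 WT and 262 Lkb1_Het barcodes. Dotted lines mark the medians, which are apart for Igkc (4.43 and 2.87) and almost the same for Jchain (0.523 and 0.526).

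The variable genes of all Mzb1 barcodes were spread over many genes in both libraries. A heavy variable gene with at least 3 UMIs was found in 132 WT and 209 Lkb1_Het barcodes, spread over 41 and 57 genes. In WT the most frequent was Ighv1-42 (19 barcodes), followed by Ighv1-53 (7), Ighv2-2 (6), Ighv1-26 (5) and Ighv1-39 (5). In Lkb1_Het it was Ighv3-6 (19), followed by Ighv9-3 (15), Ighv1-42 (13), Ighv1-82 (10) and Ighv3-1 (8). Igkv1-110 led the kappa variable genes in both, in 25 of 142 barcodes (17.6%, 11.7 to 24.9) and 37 of 244 (15.2%, 10.9 to 20.3). Igkv12-46 (7 and 13 barcodes) and Igkv10-96 (14 and 10) were among the leading 5 in both as well.

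Ighv1-42 with Igkv1-110 was the most frequent pair in each library, a pair singled out after its counts were seen. It was found in 17 of 127 WT barcodes with both calls (13.4%, 8.0 to 20.6) and in 12 of 191 in Lkb1_Het (6.28%, 3.29 to 10.7). The next pairs were Ighv2-2 with Igkv10-94 in WT (4 barcodes) and Ighv3-1 with Igkv2-109 in Lkb1_Het (8 barcodes). Barcodes with a pair fell into 88 distinct pairs in WT and 145 in Lkb1_Het, 10 of them seen in both. Near-identical variable genes can share reads, 3′ libraries capture few variable-region UMIs, and no junction was read, so a shared pair does not show a shared clone.

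B cells themselves were rare in WT. Barcodes with at least 2 UMIs of Cd79a and Ms4a1 together and under 2 of Mzb1 numbered 7 in WT (0.215%, 0.0866 to 0.443) and 122 in Lkb1_Het (1.44%, 1.2 to 1.72), a ratio of 6.70 (3.15 to 17.0). Of the 122, all had Cd74, 110 had H2-Aa and 97 had Ebf1, a B-lineage transcription factor. Cd3e, of T cells, was in 0, and Krt8, of epithelium, in 72. The 7 WT barcodes are too few for shares: 3 were called Igha, 1 Ighm and 1 Ighg2c.

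The Lkb1_Het B barcodes held Ighm or Ighd calls and Igha calls side by side. Of 86 with a call, 24 were Ighm or Ighd dominant (27.9%, 18.8 to 38.6), 20 of them Ighm and 4 Ighd. Igha was dominant in 42 (48.8%, 37.9 to 59.9), an IgG gene in 6, and no gene passed 50% in 14. Under the same rule, 1373 of the 7728 Lkb1_Het barcodes without B-lineage UMIs were called Igha, of 1452 with a call. An Igha call alone therefore does not show a switched B cell. Ighm had a UMI in 54 of 122 barcodes, Ighd in 23 and both in 19. In the classes without B-lineage UMIs Ighd was found in 3 of 7728 barcodes, at a median depth of 2184 UMIs against 1911.5 in B barcodes.

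Igha in B barcodes was concentrated in a few. Its summed level was 14093 CPM (13719 to 14475), but 9 barcodes with at least 10 Jchain UMIs held 5153 of the 5367 Igha UMIs (96.0%). In the other 113 barcodes Igha stood at 682 CPM, above the 271 of barcodes without B-lineage UMIs. Igkc stood there at 4071, Ighm at 501 and Ighd at 105. Without those 9 barcodes 33 of 77 calls were Igha, and 24 were Ighm or Ighd. An Igha call at 3 or more UMIs in a B barcode rests on few molecules. As an alternative, the mean level of barcodes without B-lineage UMIs was subtracted from each barcode as free RNA. Over all B barcodes the Ighm or Ighd share of calls was then 31.9% (21.2 to 44.2), against 27.9%. The Igha calls left after this subtraction were not counted.

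Antibody RNA was found in almost every kind of barcode. Among the 2844 WT and 7728 Lkb1_Het barcodes without a UMI of Mzb1, Cd79a, Cd79b or Ms4a1, Igkc was detected in 95.6% and 83.1%, and Igha in 74.1% and 62.0%. Thinned to 1000 UMIs, with 1085 and 2062 shallower barcodes left out, Igha was detected in 31.7% and 24.9%. Igha stood at 399 CPM in WT (390 to 409) and 271 in Lkb1_Het (266 to 276), a ratio of 0.679 (0.659 to 0.700). Igkc stood at 1612 and 511, Jchain at 178 and 108, and Iglc1 at 46.7 and 10.8. Iglc2 had the opposite order, at 10.0 and 21.1. Without the 133 WT and 35 Lkb1_Het barcodes in which the set gave at least 5% of UMIs, Igkc stood at 967 and 426, Jchain at 114 and 90.8, and Igha at 309 and 212. Relative to the median gene, 2 of 8 measured members (Ighm and Ighg1) were at least 2-fold higher and 2 (Igkc and Iglc1) lower, where 16.2% of 15275 genes were higher and 14.8% lower. The Ighm call rested on 1 Lkb1_Het barcode with 122 of 460 UMIs: the relative ratio was 2.52 with it (1.92 to 3.35) and 1.85 without it (1.40 to 2.48). These levels are far below those of Mzb1 barcodes, which held 97.2% of the Igha UMIs of kept barcodes in WT and 91.2% in Lkb1_Het.

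Igha was found in each gated class of cells that do not make it. In WT it stood at 399 CPM in T and NK barcodes, 321 in epithelial, 244 in macrophage or dendritic and 331 in stromal barcodes. In Lkb1_Het the levels were 335, 194, 313 and 398. Epithelial barcodes had a median of 3691 UMIs there against 1562.5 in WT. The order within Lkb1_Het depended on depth, since at 1000 UMIs per barcode the levels were 367, 386, 372 and 298 CPM. Barcodes passing no gate stood apart, at 1598 and 2662, and had medians of only 653 and 719 UMIs.

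Ighm differed more between the classes. In WT it stood at 0.238 CPM in epithelial barcodes (0.0490 to 0.695), 14.1 in T and NK (9.42 to 20.2) and 56.4 in macrophage or dendritic barcodes (25.8 to 107). In Lkb1_Het the order was the same, with 1.22 (0.903 to 1.6), 46.9 (33.6 to 63.6) and 104 (83.7 to 129). The intervals of epithelium do not meet those of either immune class. Thinned to 1000 UMIs, Ighm was detected in 10.3% of Lkb1_Het macrophage or dendritic barcodes (6.80 to 14.9) and 0.439% of epithelial ones (0.256 to 0.701). These classes were required to have 0 UMIs of Mzb1, Cd79a, Cd79b and Ms4a1.

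**Figure D5:**
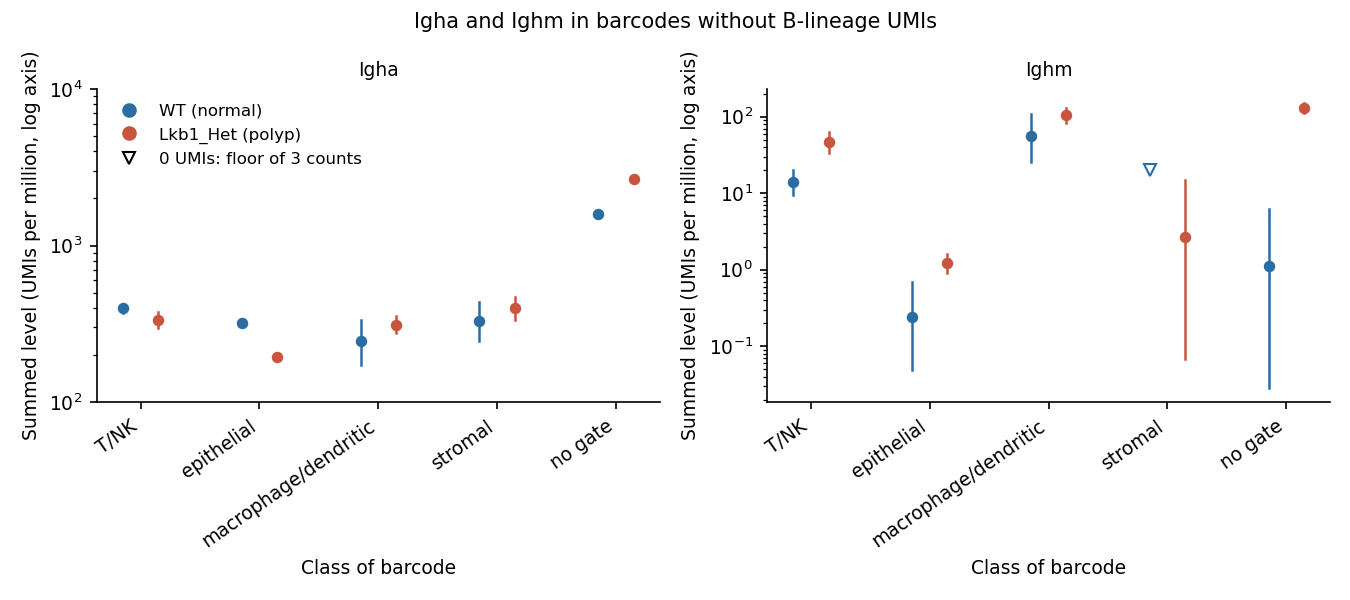
Igha (left) and Ighm (right) in barcodes without B-lineage UMIs, in CPM (log axes), by gated class and library. Points are summed levels, bars exact Poisson 95% intervals and the open triangle the floor of 3 counts at 0 UMIs; Igha lies between 194 and 399 in the 4 gated classes, whereas Ighm runs from 0.238 in WT epithelium to 104 in Lkb1_Het macrophage or dendritic barcodes.

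Ighg1 in barcodes without B-lineage UMIs was seen in 1 library only. WT had 0 UMIs in 2844 barcodes and Lkb1_Het had 406 in 196 of 7728, at 8.45 CPM (7.65 to 9.31), at least 47.4-fold higher than the WT floor of 3 counts over the class. It equalled 3.12% of the Igha UMIs there, against 0.154% in Lkb1_Het Mzb1 barcodes. Barcodes with at least 3 Ighg1 UMIs numbered 35, of which 20 passed the epithelial gate, 12 no gate and 3 several, and none passed the T and NK, macrophage or stromal gate alone. Of the 35, 34 had Igkc and 22 had Jchain. Ighg1 was the dominant heavy gene in 40 of the 1452 called barcodes of this class, and in 2 of 305 among Mzb1 barcodes.

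Genes of the secretory machinery showed no member at least 2-fold higher in Lkb1_Het Mzb1 barcodes. Of 20 listed and measured genes 4 were at least 2-fold lower relative to the median gene, where 12.4% of all genes were higher and 7.54% lower, and the median was -0.64 on the log2 scale, close to the -0.77 of the antibody genes. Creld2, an endoplasmic reticulum stress gene, stood at 363 CPM in WT and 174 in Lkb1_Het, 3.37-fold lower relative to the median gene (3.02 to 3.77). Sdf2l1, a chaperone cofactor, stood at 337 and 196, Pdia4, a disulfide isomerase, at 264 and 190, and Derl3 at 274 and 207. Ssr4, of the translocon, stood at 1616 and 1641, and Hsp90b1, a chaperone, at 1214 and 1454. In immunoglobulin-rich barcodes Derl3 no longer passed (1.99-fold lower), and Trp53inp1 did, 2.07-fold higher.

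The other lists in Mzb1 barcodes are to be read beside the same 12.4% higher and 7.54% lower, and beside 12.2% and 7.42% in the immunoglobulin-rich ones. Of 15 B-identity genes 9 were measured, and Cd74 alone passed, at 2420 and 1379 CPM (2.83-fold lower, 2.72 to 2.95). In the immunoglobulin-rich barcodes Cd79b was also at least 2-fold lower and Cd83 higher, of 8 measured. Of 16 receptors for switching and homing 11 were measured and 3 passed, all higher in Lkb1_Het: Tgfbr1 with 20 and 89 UMIs, Tgfbr2 with 8 and 41, and Il6ra with 4 and 19. The first pair forms the receptor of TGF-beta, the switch factor for IgA. In the immunoglobulin-rich barcodes 10 receptors were measured, and only Tgfbr1 and Tgfbr2 passed. Ccr10, the homing receptor of IgA plasma cells, stood at 58.2 and 86.1 CPM, 0.916 relative to the median gene. Of 7 measured cycling genes, Ube2c alone passed, with 67 and 26 UMIs, and Mki67 had 27 and 53. Top2a and Birc5 passed as well in the immunoglobulin-rich barcodes, both lower. Of 12 ligands 4 were measured in Mzb1 barcodes, with Tnfsf13 higher (3 and 24 UMIs) and Tgfb1 and Ccl25 lower. In the immunoglobulin-rich barcodes 3 were measured and only Ccl25 passed. Ccl25 was lower in epithelial barcodes too, as given below, and the part of free RNA in its level here was not tested.

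The ligands that recruit and sustain IgA cells differed in the epithelial barcodes. Of 12 listed, 8 were measured; 3 were at least 2-fold higher and 4 lower in Lkb1_Het, where 18.4% and 15% of 13952 genes were. Ccl25, the small-intestinal chemokine that draws CCR9 cells, stood at 444 CPM in WT and 4.11 in Lkb1_Het, 121-fold lower relative to the median gene (104 to 142). Ccl28, the ligand of CCR10, stood at 25.8 and 3.72. Tnfsf13 (APRIL), a plasma-cell survival factor, stood at 50.6 and 27.3, and Tnfsf13b (BAFF) at 5.71 and 0.243. Tgfb1 (24 and 226 UMIs), Il6 (0 and 51) and Cxcl12 (1 and 31) were the higher ones. The epithelial class held 12617765 UMIs in WT and 41118551 in Lkb1_Het. Pigr, the receptor that carries IgA across the epithelium, stood at 1414 and 978, and did not pass. Fcgrt, the neonatal Fc receptor for IgG, stood at 43.2 and 8.93, 5.45-fold lower relative to the median gene (4.76 to 6.23).

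In other classes fewer ligands passed. In macrophage or dendritic barcodes 2 of 3 measured ligands were higher, where 16.9% of genes were higher and 9.84% lower: Tnfsf13 had 4 and 50 UMIs, and Il10 had 0 and 26. That class held 159655 UMIs in WT (30 barcodes) and 843139 in Lkb1_Het (320 barcodes), so these raw counts overstate the difference. In T and NK barcodes Cd40lg, the helper signal to B cells, stood at 48.0 and 97.1 CPM, 2.06-fold higher relative to the median gene (1.53 to 2.78), and Tnfsf13b and Ccl25 were lower, of 6 measured, where 12.2% of genes were higher and 11.1% lower. The part of free RNA in the Ccl25 level of T and NK barcodes was not tested. In stromal barcodes Cxcl12 stood at 304 and 631, of 3 measured, where 11.6% of genes were higher and 7.43% lower. Cxcl13, which attracts B cells, had 0 UMIs in WT and 38 in Lkb1_Het. The stromal class held 148146 UMIs in WT (31 barcodes) and 377095 in Lkb1_Het (176 barcodes).

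Over the 16 library-by-class sums with at least 20 barcodes, the genes outside the immunoglobulin loci most like Igha were Jchain (Pearson r 0.989 of log2 values), Ccr10 (0.980), Gm30211 (0.968), Vpreb3 (0.961) and Mzb1 (0.944). Those most like Igkc were Jchain (0.990), Vpreb3 (0.963), Ccr10 (0.963), Oosp1 (0.948) and Gm30211 (0.945). Ighm had other neighbours: Itga4 (0.908), Slamf6 (0.904), Tnfrsf13b (0.895), Cd83 (0.892) and Pou2f2 (0.883). The classes were themselves set by UMIs of Mzb1, so the correlation of Mzb1 with Igha was built in. Values of the other genes may restate the split between Mzb1 barcodes and the rest. The points also share libraries and free RNA, so these are descriptions of 16 values.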

How the data were processed

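RNA was measured with 10x 3′ v3 chemistry in 2 libraries, 1 per group. The deposited matrices hold UMI counts per gene and barcode, per the file headers, and are whole numbers. The submitters' processing notes name Cell Ranger 3.0.0 and mm10, whereas the matrix header names Cell Ranger 5.0.0. The annotation release is not given in the sources used here. The cell filter asked for 500 UMIs, for 250 detected genes and for a mitochondrial share (13 genes) no higher than 25%. Classes were set by marker UMIs, with no clustering: Mzb1 barcodes, Cd79a or Ms4a1 barcodes, and the rest, gated at 3 UMIs of 1 marker list. Levels are summed UMIs over all UMIs of the class (compared between genes only as counts of 3′ tags), with exact Poisson intervals; shares have Clopper-Pearson intervals and ratios exact conditional binomial intervals, all at 95%. Genes with at least 20 UMIs in a class were measured, and ratios were scaled to the median gene where named. Scripts used Python 3.11.15, scipy 1.17.1 and scanpy 1.11.5. Only the ratios and their intervals were tested on simulated data, drawn as Poisson counts, and the class and dominance calls were not. Scrublet's automatic threshold marked 0 doublets, so the 85 and 573 highest scores were removed as an alternative only. Named from each list were its 4 highest genes and up to 4 past 2-fold each way, in part; named too were the 5 most frequent variable genes per locus and the 5 genes most like Igha, Ighm and Igkc. Members and lists were chosen with earlier results of these data known. No per-sample column was left unmapped. Other settings are given in the closing section.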

Additional observations from a re-analysis of the deposited data

Results flagged for a closer look

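Iglc3, a lambda constant gene outside the set and a close copy of Iglc2, stood at 1077 CPM in Lkb1_Het Mzb1 barcodes (1038 to 1117) and at 508 in WT (482 to 535), so a signal outside the main measurement was higher than in the control library. It had a UMI in 278 of 310 and 139 of 166 barcodes. Relative to the median gene the ratio was 1.31 (1.23 to 1.40), against 2.12 unscaled. The highest Lkb1_Het barcode held 380 of 2853 UMIs, and the highest WT barcode 37 of 1431.

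Ighm was also higher in Lkb1_Het among barcodes that the cell filter had removed, at 4.95 CPM (3.66 to 6.55) against 0.750 in WT (0.400 to 1.28). These were 49 UMIs in 5867 barcodes and 13 UMIs in 6698. Each library was a single sample, so neither difference was tested.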

How the results depend on the processing

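No paired analysis was possible because each group was 1 library and no result came from a test. The lambda shares and the IgM or IgD share of B barcodes stayed within their counting intervals under all alternatives. The Lkb1_Het IgA share was 98.4% with at least 5 Mzb1 UMIs, 97.6% with dominance at 10 UMIs and 80%, and 98.9% in immunoglobulin-rich barcodes, where the WT share was 98.7%. The ratio of Mzb1 shares was 1.21 without a cell filter, a change of direction, and 0.530 after thinning to 1000 UMIs. Igha in barcodes without B-lineage UMIs had a ratio of 0.612 without a filter and 0.904 thinned. That ratio was 0.637 with immunoglobulin and free-RNA genes out of the denominator and 0.610 as a mean over barcodes. The Igha ratio in Mzb1 barcodes, relative to the median gene, was 0.566 with a strict filter and 0.622 without high doublet scores. It was 0.632 with at least 5 Mzb1 UMIs and 0.726 without barcodes holding Ms4a1 or other cells' genes. The same ratio was 0.745 thinned, 0.683 as a mean over barcodes, 0.644 in immunoglobulin-rich barcodes and 0.944 unscaled. Unscaled and thinned together, Igha was higher in Lkb1_Het (106656 and 108916 CPM). Reversed values of other genes were Ighg2b 0.876 thinned and 0.867 as a mean over barcodes, and Iglc2 1.50 with at least 5 Mzb1 UMIs and 1.33 unscaled. Ighg2c turned to 1.07 without barcodes holding Ms4a1 or other cells' genes, a setting that left out both WT barcodes called Ighg2c. The cause was not tested. Ighg1 gave no ratio in 2 settings, because no WT UMI was left. Alternatives for immunoglobulin-rich barcodes, low-Jchain B barcodes, low-immunoglobulin barcodes, unscaled ratios and ratios without the highest barcode were chosen after seeing the data. The highest barcode was removed only from the library with the higher level. Depth limits the calls of single barcodes with few heavy-chain UMIs.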
